A study of Populus trichocarpa and Populus tremula x Populus alba with 22 samples.

Results

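The genes described here are 86 of 42950 poplar genes whose transcripts were higher both in young leaves grown without Fe and in leaves of plants carrying a PtrbHLH011 overexpression construct, and whose level in the 3rd internode moved less than 2-fold without Fe. They were chosen from the measured values. With L as the log2 ratio of the group means, each mean raised by 1, a member had an L of at least 1 in the young leaf and in the overexpression leaf comparison. In both it also had a mean of at least 50 over the 6 libraries and no case value at or below a control value, and its absolute L was under 1 in the internode. The levels and changes in these 3 comparisons are therefore given as a description without a test, and only the overexpression stem was free of the choice.

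The 22 RNA-seq libraries belong to 2 experiments. For Fe supply, hydroponic Populus trichocarpa plants were kept with 10 µM Fe (the Fe-sufficient control) or 0 µM Fe (Fe-deprived) for 21 days, and young leaf and 3rd internode were taken from the same plants, P11, P13 and P17 as controls and P7, P22 and P30 without Fe. The internode libraries of P17 and P7 carry sample numbers apart from those of all other libraries. Whether they were made together with the others was not checked. For overexpression, leaf (3 libraries each) and stem (2 each) came from 4-month-old Populus tremula x Populus alba hybrids with an empty vector or the PtrbHLH011 construct. The library names of the overexpression groups share a single code, and so do those of the empty-vector groups. The labels do not say whether a code stands for a plant or a line. An effect of the construct and a difference between the codes cannot be told apart. Neither the number of transgenic lines nor the promoter of the construct is given in the sources used here. Hybrid reads were counted under the same gene IDs as those of P. trichocarpa.

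Fe serves as a cofactor of heme and of iron-sulfur proteins, and leaves need it for chlorophyll synthesis and for photosynthetic and respiratory electron transport. Plants short of Fe switch on uptake, transport and redistribution genes through a cascade of basic helix-loop-helix transcription factors. PtrbHLH011 carries the name of Arabidopsis bHLH011, which in Arabidopsis is known as a repressor of Fe uptake genes. The files give gene IDs without names, and 0 of the 42950 IDs matched the RefSeq table of the P.trichocarpa_v4.1 assembly. Members are therefore given by ID with no role or sequence, the level of PtrbHLH011 itself was not checked, and neither were tissue markers. No source used here states how near-identical copies and strand were counted, so values of such genes are uncertain. Among the members, 8 have an ID whose running number lies within 1000 of that of another member with the same prefix.

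Libraries held 26620695 to 68689878 reads, recovered from the deposited normalized counts, which are gene counts divided by a size factor per library. Values below are these normalized counts, scaled within each of the 4 tables and not across them, and errors are SD over libraries. The labels call the overexpression libraries biological replicates without saying whether they are separate plants or lines, so p-values there measure the spread between libraries, which may be technical. In bulk tissue, fewer cells of a type and less RNA per cell cannot be told apart.

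Together the 86 genes held a larger share of the reads in both leaf case groups than in their controls. They stood at 1156, 1227 and 1372 CPM (summed reads scaled to a common library total) in the 3 Fe-sufficient leaves and 4121, 4728 and 5980 in the 3 Fe-deprived leaves. Empty-vector leaves stood at 924, 1018 and 1022 CPM and overexpression leaves at 3803, 4570 and 4934. Each leaf case group thus lay above its controls in every library, as the choice of members required gene by gene. As a sum, the internode carried these transcripts already with Fe present. There, the 10 most abundant members held 65.8% of the set's reads, against 53.7% in Fe-sufficient leaf. The control internodes held 4731 ± 989 CPM (n = 3), with single libraries at 3617, 5070 and 5504, a range that overlaps that of the Fe-deprived leaves. The Fe-deprived internodes held 6330 ± 458 (n = 3) and lay above their controls in each library. Stems held 1732 and 1760 CPM with the empty vector and 3090 and 3494 under overexpression.

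**Figure D1:**
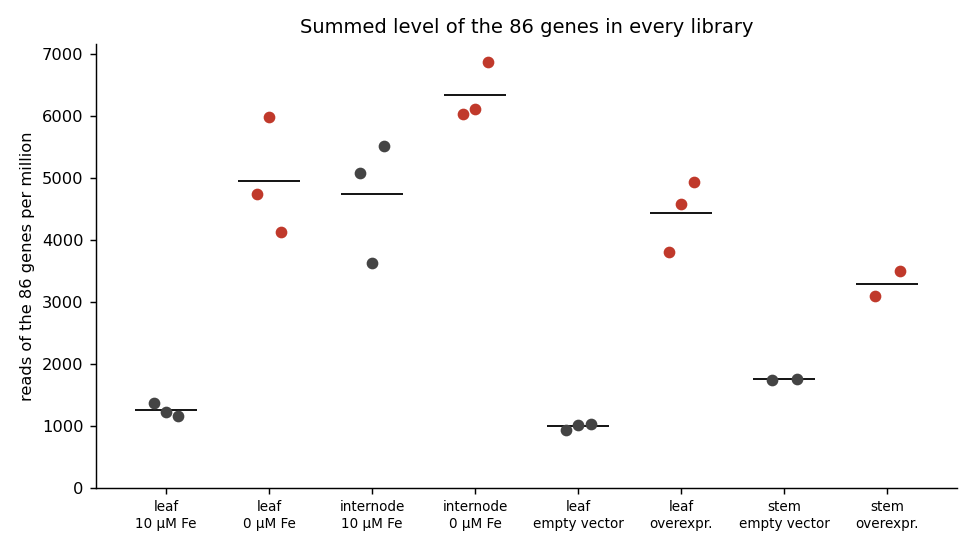
Summed level of the 86 genes in CPM (vertical axis, linear from 0) in the 8 groups (horizontal axis); points are libraries, grey for controls and red for Fe-deprived or overexpression, and bars are group means. The Fe-deprived leaves, at 4121 to 5980, overlap the Fe-sufficient internodes, at 3617 to 5504.

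In single genes the levels also leaned to the internode, and so did those of all genes to a smaller degree. The median level of a member was 5.16 CPM in Fe-sufficient leaf and 12.3 in Fe-sufficient internode. Every internode control lay above every leaf control for 39 of the 86 genes, and the reverse held for 11. The median log2 ratio of leaf to internode (0.1 added to each mean) was -1.18 for the members and -0.44 for the 26563 genes with a mean of 1 CPM or more in either organ. In the hybrid, the median was 4.50 CPM in empty-vector leaf and 4.59 in empty-vector stem. There 34 members were higher in every leaf and 32 in every stem library, and the median log2 ratio of leaf to stem was 0.05, against 0.25 for 25155 genes. These levels come from tables that were normalized separately and were not tested. For the counts of genes apart in every library, no share over all genes was computed, so nothing is read from them. Control leaves of P. trichocarpa and the hybrid were alike for part of the set. The mean level lay within 2-fold for 42 members. It was over 2-fold higher in Fe-sufficient P. trichocarpa for 24 and over 2-fold higher in the empty-vector hybrid for 20. These differences may include species, age, growth conditions, RNA kit, platform and the counting of hybrid reads under the same gene IDs, which cannot be told apart.

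The sizes of both leaf changes were moderate for most members. Without Fe, L ran from 1.01 to 4.67 with a median of 1.58, and 26 members reached 2, 8 reached 3 and 3 reached 4. Under overexpression L ran from 1.00 to 6.71 with a median of 1.63, and 34 members reached 2, 15 reached 3 and 6 reached 4. The median L of all genes at a mean of 50 or more was 0.01 in young leaf and -0.01 in overexpression leaf. Of those genes 3.73% (918 of 24590) met the conditions of level, size and separation in young leaf and 7.81% (1755 of 22472) in overexpression leaf, which the rule used. The larger L was the one without Fe for 42 members and the one under overexpression for 44. They lay within 0.5 of each other for 37, and both were at least 2 for 14 and both under 2 for 40. Across the 86 genes, which are not independent and which share their libraries, Pearson's r between both values was 0.33 and Spearman's rho 0.27.

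**Figure D2:**
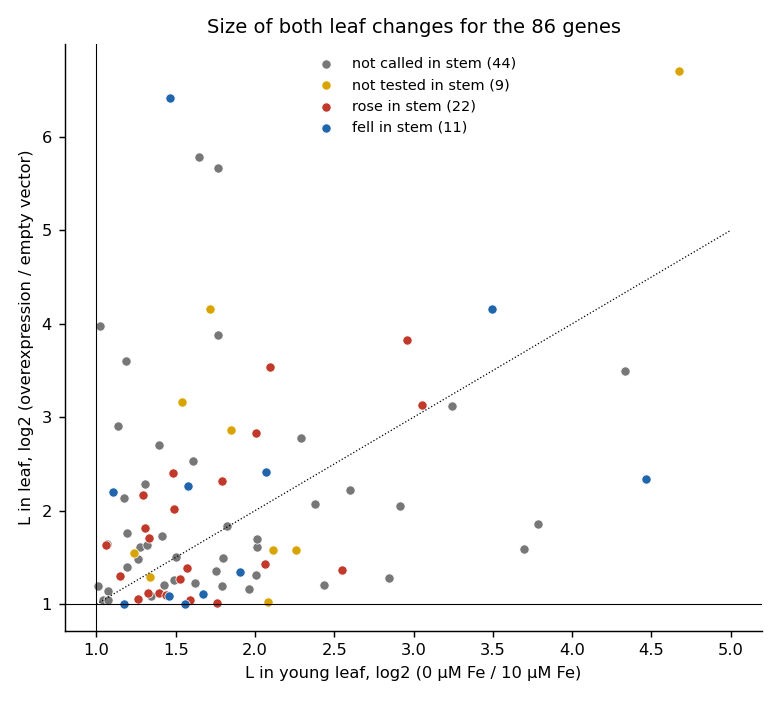
L, the log2 ratio of group means plus 1, in young leaf without Fe (horizontal axis) against L in overexpression leaf (vertical axis) for the 86 genes; solid lines mark the limit of 1, the dotted line equal values, and colours the limma result in overexpression stem. Most points lie near the lower left corner, and genes that rose or fell in stem are found among small and large leaf changes alike.

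Separation between the leaf groups was narrow for a part of the set. The lowest Fe-deprived value (1 added to each) was at least 2-fold above the highest Fe-sufficient value for 27 members and under 1.2-fold above it for 13. In overexpression leaf the same gap was at least 2-fold for 36 members and under 1.2-fold for 7. Spread within a group was wide, with a median coefficient of variation of 31.7% in Fe-sufficient, 27.3% in Fe-deprived, 26.6% in empty-vector and 24.9% in overexpression leaf. For all genes at a mean of 50 or more those medians were 15.03%, 19.4%, 13.5% and 14.5%. Among the Fe-deprived leaves, plant P22 had the highest value for 48 members, P7 for 26 and P30 for 12, and P30 had the lowest for 42. Of the overexpression leaves, replicate 1 was the lowest for 52 members. In the Fe-sufficient leaves, P11, P13 and P17 were the highest for 29, 29 and 28 members, so none of these leaves stood apart in this set. Of the empty-vector leaves, replicate 1 was the lowest for 51 members and replicate 3 the highest for 40. Without the P11 leaf 81 of the 86 genes still met the rule, and without the P22 leaf 76 did.

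Potri.T178900 had the largest L in both leaf comparisons, but at a low level. It stood at 0, 10.5 and 0 in the 3 Fe-sufficient leaves and at 27.5, 291 and 22.2 in the Fe-deprived leaves, so that P22 alone carried most of the mean. Overexpression leaves held 70.5, 77.9 and 162, while the 3 empty-vector leaves held 0 reads, which makes the level at least 33.1-fold higher against a floor of 3 reads per library. All 4 stem libraries held 0 reads. In the internode it was low and overlapping, at 0, 17.3 and 35.3 with Fe and 5.01, 3.08 and 27.7 without.

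Potri.010G237300 had the next largest L without Fe, 4.46, from an even control level. Its values were 381, 368 and 359 in the Fe-sufficient leaves and 15787, 5161 and 3548 in the Fe-deprived leaves, with P7 far above the other plants. Overexpression leaves held 520, 1063 and 1491 against 96.6, 275 and 232 with the empty vector. Both groups were apart in each leaf experiment. Internodes overlapped, at 867, 580 and 203 with Fe and 555, 551 and 623 without.

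Potri.006G179300 had the second largest L under overexpression, 6.41, while its L without Fe, 1.46, was near the set's median of 1.58. It went from 14.4, 30.5 and 18.5 in empty-vector leaves to 2852, 1087 and 1706 in overexpression leaves. Fe-deprived leaves, at 173, 78.4 and 141, lay above the Fe-sufficient leaves, at 30.1, 32.5 and 77.8, by a margin of 1.01-fold between the nearest values. In internodes, on a separately scaled table, its values were scattered, from 46.2 to 1569 in the controls and from 336 to 537 without Fe.

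Potri.008G022100 combined large changes in both experiments. It went from 319, 332 and 220 to 5091, 2518 and 2211 without Fe, an L of 3.49. Under overexpression it went from 147, 145 and 115.3 to 2111, 2291 and 2935, an L of 4.16. In both, the lowest case value was over 6-fold above the highest control (6.64-fold and 14.3-fold). Its internode values, at 236, 456 and 518 with Fe and 570, 533 and 790 without, were apart by a narrow margin of 1.03-fold.

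**Figure D3:**
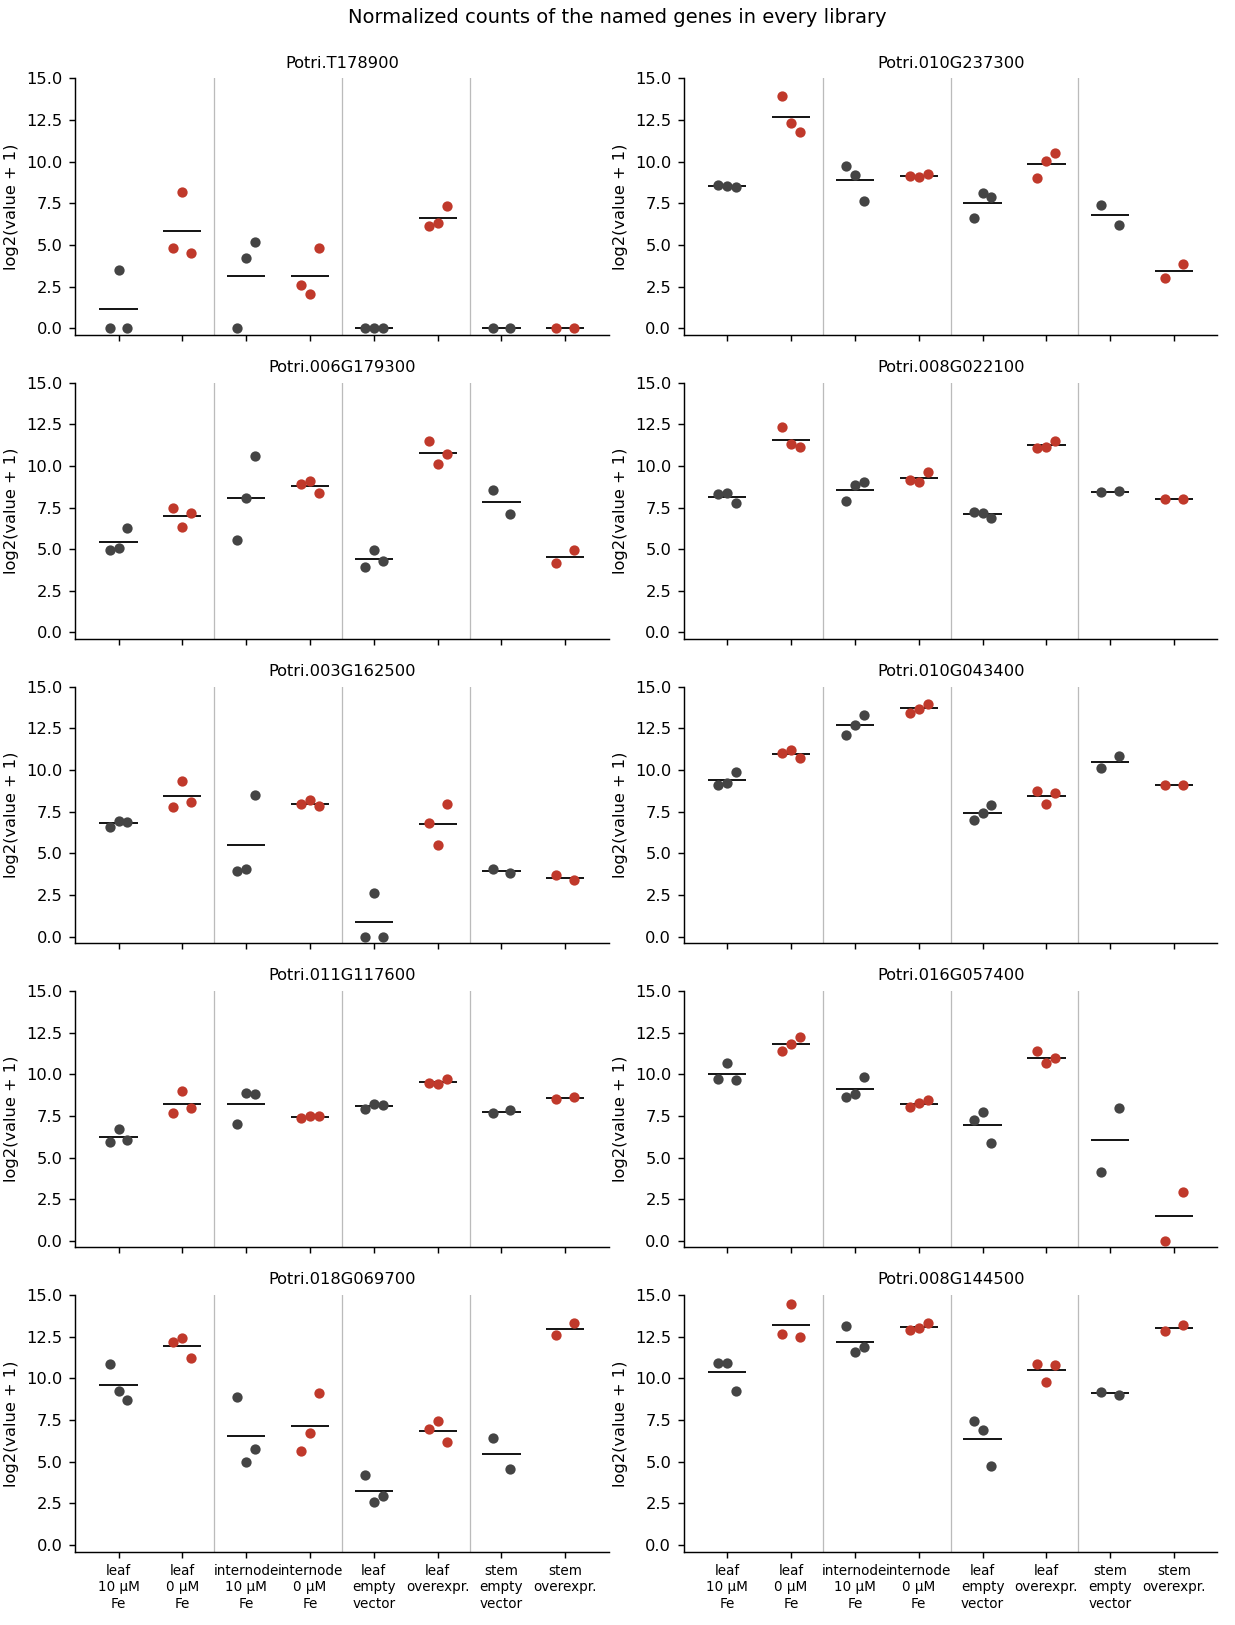
log2(normalized count + 1) of the 10 named genes (vertical axis) in every library of the 8 groups (horizontal axis, vertical lines between the comparisons); points are libraries, grey for controls and red for Fe-deprived or overexpression, and bars are means. Potri.010G237300 and Potri.006G179300 go up in overexpression leaf and down in overexpression stem, while Potri.018G069700 and Potri.008G144500 go up in both.

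In the internode the rule held L between -1 and 1, and within that window most members were on the positive side. L was above 0 for 65 of the 86 genes and below 0 for 21, with a median of 0.32, against a median of -0.03 for the 25389 genes at a mean of 50 or more, 46.8% of which were above 0. Of the 77 members at a mean of 50 or more in the internode, 15 had every Fe-deprived library above every control and 1 had every one below. For all 25389 genes these shares were 14.4% higher and 13.4% lower. This comparison was part of the rule, and nothing is read from the difference. The P17 internode was the highest control for 39 members, and the P7 internode was the highest without Fe for 48. A further 67 genes met all leaf conditions but passed the internode limit, 60 with an L of 1 or more and 7 with an L of -1 or less. Spread was wide in the control internodes, with a median coefficient of variation of 45.1% for the members. For all genes at a mean of 50 or more it was 23.6%. Without Fe these medians were 17.3% and 11.1%. The internode limit is one on group means and does not show equal levels.

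At the upper edge of that window, Potri.010G043400 had an internode L of 0.94. It stood at 4373, 6667 and 10049 in the control internodes and at 11171, 13172 and 16248 without Fe, with no overlap. Its leaf values were far lower, at 545, 588 and 951 with Fe and 2054, 2377 and 1723 without, on a separately scaled table. In the hybrid leaf it barely met the rule, with 128, 168 and 240 against 436, 245 and 395 under overexpression. Potri.003G162500 had the highest internode L, 0.97, yet its groups overlapped because the P17 control stood at 357 beside 14.3 and 15.4. The Fe-deprived internodes held 244, 291 and 224. Its leaf values went from 95.5, 124 and 116 to 221, 651 and 275 without Fe, and from 0, 5.08 and 0 to 113, 43.8 and 251 under overexpression.

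At the lower edge were Potri.011G117600, with an internode L of -0.98, and Potri.016G057400, with -0.95. Potri.011G117600 held 126, 464 and 441 in control internodes and 166, 177 and 176 without Fe, which overlap through P11. In leaf it went from 60.3, 104.5 and 64.2 to 205, 509 and 253 without Fe, and from 237, 301 and 285 to 713, 678 and 826 under overexpression. Potri.016G057400 was the only member lower in every Fe-deprived internode than in any control, at 259, 306 and 343 against 399, 452 and 910. In leaf it was higher in every case library, at 2654, 3679 and 4853 against 848, 1633 and 809 for Fe, and at 2666, 1636 and 1978 against 153, 213 and 58.7 for overexpression.

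The overexpression stem asked whether the genes also moved in the other organ of the transgenic plants. The rule did not use the stem libraries. Some members rose there, fewer fell, and most did not pass the test. limma was fitted to log2(value + 1) of all 24810 genes at a value of 10 or more in 2 libraries, and a gene was called at a Benjamini-Hochberg adjusted p under 0.05. Of the 86 members 77 entered the fit, and the other 9 did not exceed 15.2 in any stem library. Among the 77, 22 rose (28.6%), 11 fell (14.3%) and 44 were not called. Over all genes tested, 20.0% rose and 17.2% fell. The share called in either direction, 42.9%, was thus close to the 37.2% of all genes. Their median log2 change was 0.12 (quartiles -0.62 and 1.09), beside 0.00 for all genes (quartiles -0.44 and 0.48). Without empty-vector replicate 1 the members' median was -0.02. An estimated log2 change of at least 1 in either direction was seen for 35 of the 77 (45.5%), of which 23 were called and 12 were not, against 21.3% of all genes. Called with such a change were 16.6% of all genes. As for spread between replicates, at a mean of 50 or more, the median coefficient of variation of 59 members was 26.4% in empty-vector and 9.76% in overexpression stem, against 9.21% and 6.39% for 20288 genes. The part of this spread in the large estimates was not tested. Of the 77 tested, 11 were called and rose at least 4-fold (14.3%) against 2.46%, while 3 fell at least 4-fold (3.90%) against 2.58%. These shares were not tested, and the members were chosen for large changes in another organ of the same genotypes. Without either overexpression stem library limma called 0 members and 0 genes, with 28 members at an unadjusted p under 0.05 in each case. No other tool was run there. In these fits the spread comes from the empty-vector pair, and the lone overexpression library is taken to share it.

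**Figure D4:**
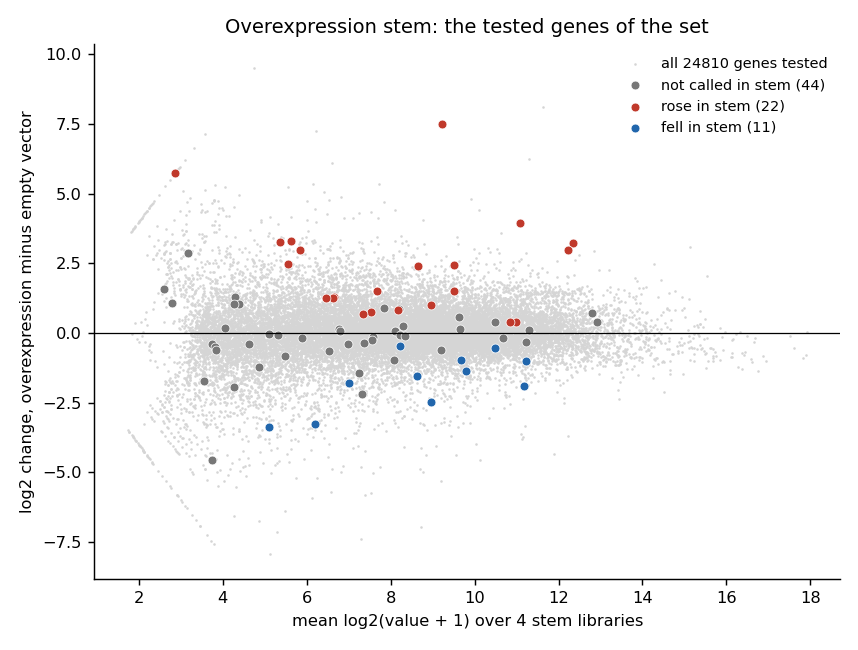
limma log2 change in stem, overexpression minus empty vector (vertical axis), against the mean log2(normalized count + 1) over the 4 stem libraries (horizontal axis); small grey points are the 24810 genes tested and large points the 77 tested members by result. The 22 red members that rose reach 7.48, and the 11 blue ones that fell reach -3.38.

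Potri.018G069700 rose most among the members in stem. It held 86.1 and 22.2 with the empty vector and 6358 and 10171 under overexpression (log2 change 7.48 ± 0.61 SE, n = 2 each, limma adjusted p = 0.00166). In leaf of the same genotypes it was a minor transcript, at 17.5, 5.08 and 6.52 against 125, 172 and 72.8. Young leaves of P. trichocarpa held 1891, 618 and 422 with Fe and 4714, 5436 and 2376 without. These values are higher, but on a separately scaled table of another species and platform. Its internode values were scattered without order between 30.8 and 551.

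Potri.008G144500 rose to a similar level in stem, from 592 and 522 to 7438 and 9650 (log2 change 3.93 ± 0.15 SE, n = 2 each, limma adjusted p = 0.00113). Leaves gave a comparable ratio at lower values on a separately scaled table, 171, 121 and 26.1 with the empty vector against 1851, 871 and 1806. Without Fe it went from 1966, 1922 and 615 to 6562, 22772 and 5694 in young leaf, with P22 highest. Its internode level was high in both groups, 3096 to 9028 with Fe and 7609 to 10118 without.

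Among the called members, Potri.010G237300 and Potri.006G179300 fell most in stem, and both were higher in overexpression leaf. Potri.010G237300 went from 169 and 71.7 to 6.93 and 13.5 (log2 change -3.38 ± 0.55 SE, n = 2 each, limma adjusted p = 0.00749). Potri.006G179300 went from 368 and 138 to 16.8 and 29.8 (log2 change -3.27 ± 0.53 SE, n = 2 each, limma adjusted p = 0.00757). Neither was called without empty-vector replicate 1 (limma adjusted p = 0.0647 and 0.0648). Potri.016G057400 had 16.4 and 246 in empty-vector stems and 0 and 6.74 under overexpression, a wide spread between the controls, and its larger estimate was not called (limma log2 change -4.56 ± 1.503 SE, adjusted p = 0.0611).

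The other named genes changed less in stem. Potri.010G043400 fell from 1111 and 1819 to 560 and 548 (limma log2 change -1.36 ± 0.23 SE, adjusted p = 0.0086), and Potri.011G117600 rose from 202 and 230 to 363 and 402 (limma log2 change 0.82 ± 0.15 SE, adjusted p = 0.0107). The call of Potri.011G117600 was lost without empty-vector replicate 1 (limma adjusted p = 0.0604). Potri.008G022100, with its large rise in leaf, fell from 348 and 356 to 256 and 257 (limma log2 change -0.45 ± 0.13 SE, adjusted p = 0.0416). That call was not made by DESeq2 (adjusted p = 0.0999), nor by limma without empty-vector replicate 1 (adjusted p = 0.088) or replicate 2 (adjusted p = 0.0922), and 7 of 14 alternatives lost it. Potri.003G162500 was low in stem, at 15.4 and 13.1 against 11.9 and 9.63, and was not called (limma adjusted p = 0.558).

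The stem changes are set beside the leaf changes next. Members that rose in stem had a median L of 1.51 without Fe and 1.53 under overexpression in leaf, those that fell 1.58 and 2.2, and those not called 1.61 and 1.64. Across the 77 tested genes Pearson's r of the stem log2 change was -0.08 with the overexpression leaf L and -0.03 with the young leaf L, values from libraries of one experiment in the first case. Members that fell had a median of 1144 in the empty-vector stems, against 135 for those that rose. Under overexpression these medians were 256 and 363. Rising and falling members were told apart by these same values, so nothing is read from the difference. The gain in summed stem reads was a net value, with rises and falls among the members. Leaving out the 5 members with the largest gain in mean stem value, the set stood at 1417 CPM in empty-vector and 1375 in overexpression stems. These 5 were chosen after their values were seen, and members with large falls stayed in, so the smaller change was partly set by the choice. The remaining 81 genes held 939 CPM in empty-vector and 4218 in overexpression leaves, where the largest gains were not left out. Among the leaf groups the 10 most abundant members held 47.1% to 54.9% of the reads of the set. In the internodes they held 65.5% and 65.8%, in empty-vector stem 62.1% and in overexpression stem 77.1%.

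**Figure D5:**
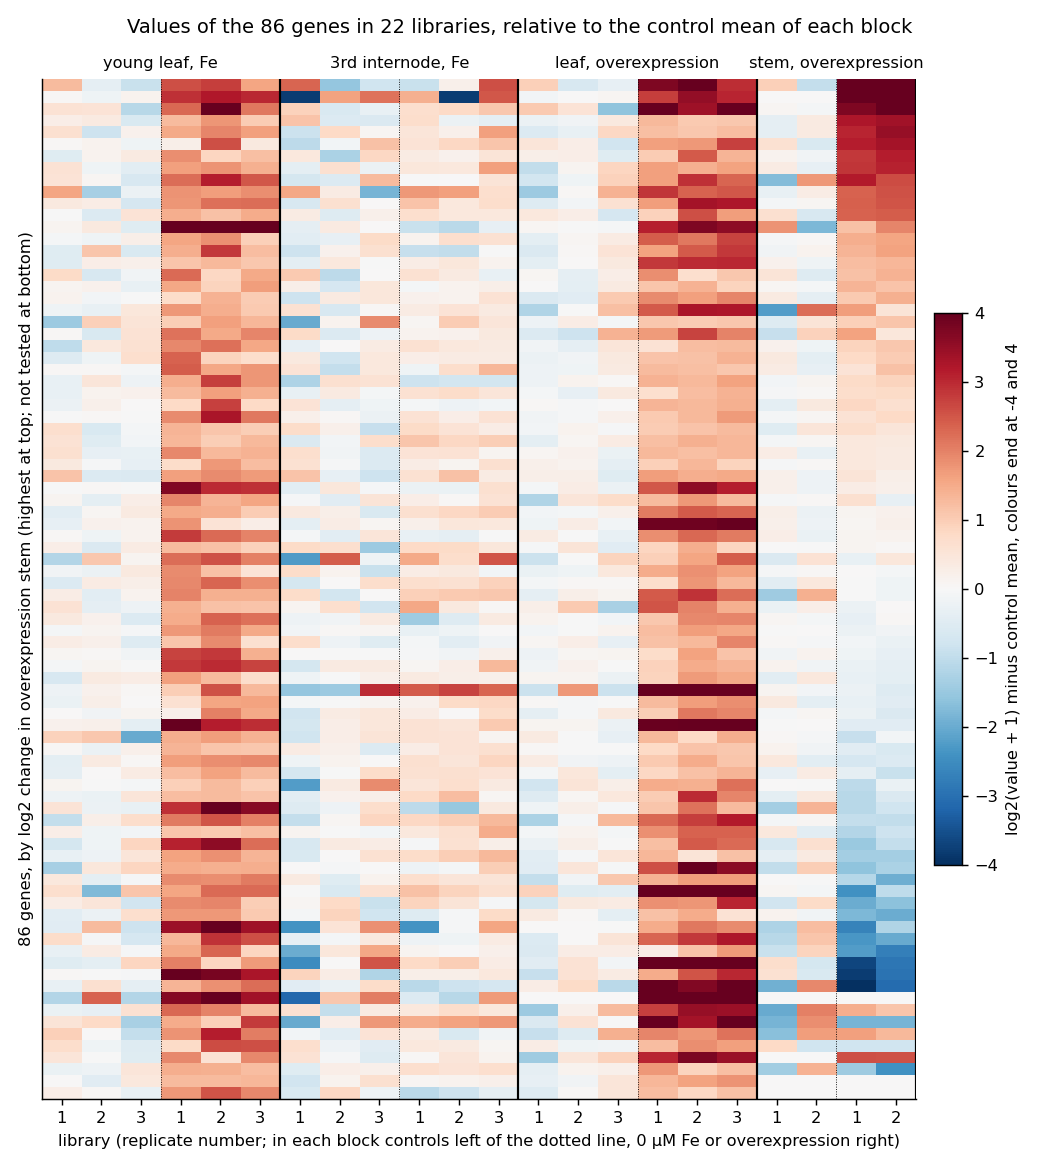
log2(normalized count + 1) minus the control mean of each comparison (colour, ending at -4 and 4) for the 86 genes (rows, ordered by the log2 change in overexpression stem, the 9 not tested at the bottom) in 22 libraries (columns, controls left of each dotted line). The columns right of the dotted line are red in both leaf blocks by the choice of genes and mixed in the internode block. In the stem block they run from red to blue.

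Membership turned on the limits for some genes. The nearest member had an L of 1.01 in young leaf and the nearest gene outside 0.997. For overexpression leaf these were 1.0004 and 0.984. In the internode they were 0.985 and 1.01. The lowest member mean was 58.5 in young leaf and 51.8 in overexpression leaf, and the nearest means outside were 38.5 and 48.6. Missing a single condition kept out 87 genes on the young leaf L, 43 on the overexpression leaf L, 20 and 27 on the 2 means, 67 on the internode and 29 on the overlap.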

How the data were processed

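The authors deposited 4 tables of 42950 genes, each holding a normalized signal, that is gene counts over a size factor of the library. Per the submitters' processing notes the tools were StringTie 2.2.1, HISAT2 2.2.1 and DESeq2 2.11.40.7, without stated roles. Gene IDs carry the suffix v3.1 in 3 tables per the file headers and rows, and the genome build is otherwise not given in the sources used here. All values were whole multiples of a step per library (100% within 0.001), and these multiples are called reads here, although they may be rounded estimates. The 2 experiments differ in RNA kit and in platform, Illumina with poly(A) selection for Fe and strand-specific DNBSEQ for overexpression, per the labels' protocols.

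The members and named genes were chosen with earlier results of these data known. The stem was tested two-sided in R 4.3.3 with limma 3.58.1 and a trended prior variance, and the code was run on simulated counts. The simulation changed 200 genes by large amounts and gave every gene the same dispersion. It does not bear on calls of small changes or of genes with wide spread. edgeR 4.0.16 and DESeq2 1.42.0 on the reads, each library left out in turn, the replicate number as a block, pseudocounts of 0.1 and 5, other filters and scalings and a minimum change were alternatives. Named genes are the 2 members with the largest L in each leaf table and in the smaller of both, the 2 highest and lowest in the internode, and the 2 largest called rises and falls in stem at a mean of 50 or more without overlap. The lists of Fe homeostasis genes and tissue markers had 0 members, since no ID matched a name, and were not tested.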

Additional observations from a re-analysis of the deposited data

Results flagged for a closer look

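Some members had values on opposite sides of the controls in 2 organs under the same contrast. The difference was not tested, and the leaf direction was set by the choice of genes. For 28 of the 86 members (32.6%) every overexpression library was above every empty-vector library in leaf and below every one in stem. Named genes among them had a stem L of -4.92 (Potri.016G057400), -3.44 (Potri.010G237300), -3.38 (Potri.006G179300), -1.40 (Potri.010G043400), -0.45 (Potri.008G022100) and -0.38 (Potri.003G162500). Of all genes tested in stem, 36.9% lay below the empty vector in every library. Among the 77 tested members the share was 35.1%, so it is not above the background. limma called 11 members as lower in stem, and Potri.016G057400 (adjusted p = 0.0611) and Potri.003G162500 (adjusted p = 0.558) are not among them. Under Fe deprivation Potri.016G057400 was higher in every leaf and lower in every internode of the Fe-deprived plants (internode L -0.95).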

How the results depend on the processing

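In stem, 33 members were called, and 30 to 43 under the alternatives of pseudocount, filter, scaling, tool and replicate block. Tested in limma against a change of 2-fold, 10 remained (9 rose, 1 fell; 418 of all genes). Keeping the calls with an estimated log2 change of at least 1 in size, an alternative chosen after seeing the data, left 23 (16 rose, 7 fell; 4125 of all genes). Leaving out a stem library gave 0 to 34 calls, 0 to 23 rising and 0 to 11 falling, with 0 without either overexpression library. The median log2 change of the members was 0.05 with quantile normalization and -0.02 without empty-vector replicate 1. With the replicate block 43 members were called, 27 rising and 16 falling, but the numbers share only a label (correlation of deviations 0.069). The block changed 2 named calls: Potri.016G057400 passed (limma adjusted p = 0.000787) and Potri.008G022100 did not (adjusted p = 0.0519). The set held 132 genes at a mean of at least 10, 66 at a mean of at least 100, 76 with quantile normalization (63 of the 86), 153 without the internode condition, and 77 to 116 without a library, 75 to 85 of them shared with the 86. None of these settings reversed the direction of a called named gene in stem, but the 7 called named genes lost their call in 7 of 70 values with all libraries and in 19 of 28 with a library left out. With 2 libraries per genotype, calls in stem rest on the pooled spread of all genes.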
